A study of Rattus norvegicus with 6 samples.

Results

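Cultured rat 3Y1 cells carrying the cytoplasmic domain of MUC1 were compared with cells carrying an empty vector, over all probe sets of the array other than controls. The comparison uses 4 of the 6 arrays of the series, chosen by their titles: 2 of MUC1-CD cells grown in vitro and 2 of Vector cells grown in vitro. The other 2 arrays, of MUC1-CD cells grown as tumors in athymic mice, are given below only as levels beside a result, since they hold the same line as the MUC1-CD culture arrays. Some markers of muscle and macrophages, such as Acta1 and C1qa, were brighter on the tumor arrays than in culture. How much of a tumor level comes from the line and how much from host tissue was not tested. 3Y1 is a line of rat embryonic fibroblasts, and both transfections were stable. Both groups were kept in DMEM with 10% fetal bovine serum, penicillin, streptomycin and L-glutamine, RNA was taken up in TRIzol, and 6 µg of total RNA was labelled for each array. The labels call the arrays of a group biological replicates, and p values below measure only the spread between these arrays. The sources used here do not say whether each line is a clone or a pool, nor whether both began from 1 stock of 3Y1 cells. What the domain did and how the 2 lines differ otherwise cannot be told apart. The stated purpose of the series was to find genes that accompany transformation and tumor formation by the domain.

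MUC1 is a transmembrane mucin of epithelial surfaces that is overproduced and loses its apical position in many carcinomas. Its short cytoplasmic domain is phosphorylated by receptor and SRC family kinases, binds beta-catenin and can reach the nucleus. Fibroblasts build and remodel connective tissue by secreting collagens, proteoglycans, proteases and growth factors.

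Of 31042 probe sets other than controls, 18629 were tested, those whose mean of the 4 signals reached the 40th percentile (51.75). They represented 9976 named genes, each taken as its probe set with the highest mean signal. A change is the difference of log2(signal + 16), MUC1-CD minus Vector, with its standard error (SE) from limma, and this scale understates the change of low signals. "Rose" and "fell" are used for limma adjusted p under 0.05 (Benjamini-Hochberg over the tested probe sets). Paired values are those of replicates 1 and 2. The Vector arrays differed from each other more than the MUC1-CD arrays did (SD of the difference over tested probe sets 0.61 against 0.25 log2), and the ratio of 3' to 5' signal of Gapdh was 11.5 and 17.8 on them against 1.18 and 1.11 on the MUC1-CD arrays. For beta-actin the ratio was 4.15 and 41.7 against 3.37 and 3.28. RNA quality and group cannot be told apart. Each change was also taken against each Vector array alone, which cannot separate them, since both Vector arrays had the high Gapdh ratio. The labelled cell type was checked on 14 fibroblast markers, of which 12 were measured on the 4 arrays and Dcn and Lum were below the filter. Vimentin (Vim) read 27322 and 26145 in Vector cells and 20239 and 21146 in MUC1-CD cells, and fibronectin (Fn1) read 13723 and 13757 and 12747 and 12743. Among the 12, 2 rose and 7 fell (2 to 3 rises and 3 to 8 falls with each array left out). The rises were Fbn1 and the surface glycoprotein Thy1, from 1701 and 808.1 to 4302 and 4066, and the falls were Vim, Col1a1, Col1a2, Col3a1, Pdgfra, S100a4 and the matrix glycoprotein Sparc, from 5428 and 5144 to 2622 and 2718. The fall of Vim turned to a change of 0.02 under quantile normalization and that of S100a4 to 0.05. Without MUC1-CD replicate 1 and 2 the calls of Vim (limma adjusted p = 0.162 and 0.112), Col1a2 (0.0698 and 0.0579), Pdgfra (0.118 and 0.135) and S100a4 (0.277 and 0.173) were lost.

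Of 9976 genes 3781 were called (37.9%): 1655 rose (16.6%) and 2126 fell (21.3%), and by probe set 3675 of 18629 rose (19.7%) and 3285 fell (17.6%). Counts in the gene lists below are to be read beside the shares of genes, and no list was tested against them. The called genes were 1214 to 6605 when each array was left out in turn, lowest without a MUC1-CD array, when only the Vector arrays give the spread, and highest without a Vector array. On all 4 arrays, both MUC1-CD values lay outside both Vector values for 7326 genes (73.4%; 33.3% higher and 40.1% lower), a separation that is common here and marks no gene by itself. A stricter group of 797 genes that rose (7.99%) and 910 that fell (9.12%) also differed by at least 1 log2 unit, in the called direction, from each Vector array alone. For 98 of 2812 genes with several tested probe sets (3.49%), probe sets were called in opposite directions. Every gene described below as risen or fallen had no overlap between the groups. Of the called genes that the naming rule gave, most of those described below kept their call with each array left out in turn, and where one did not, its values are given. That choice among them was made after their values were seen. Division of each array by its own median, in place of the deposited scaling, moved the median change of all genes from -0.05 to -0.36, so small changes shared by many genes depend on the scaling.

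The rat Muc1 probe set was low on all 4 arrays, at 92.6 and 83.2 in Vector cells and 43.5 and 26.7 in MUC1-CD cells (change -1.04 ± 0.30, limma adjusted p = 0.0458). Its call did not hold without either MUC1-CD array (adjusted p = 0.137 without replicate 1 and 0.342 without replicate 2). The sources used here do not say whether its probes match the transfected sequence, and it is no check of the labels.

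**Figure D1:**
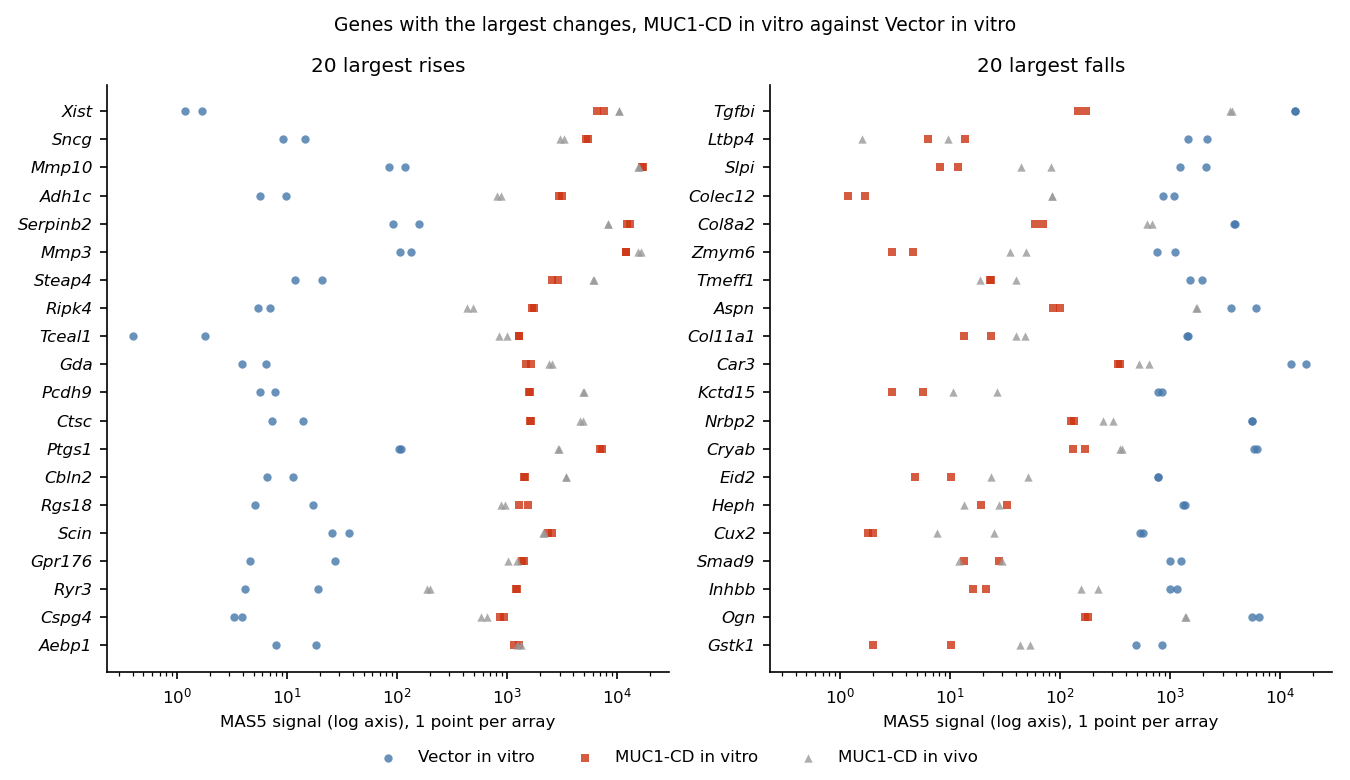
Signal on a log axis of the 20 genes that rose most and the 20 that fell most, one row a gene, with points for the Vector arrays, the MUC1-CD culture arrays and the tumor arrays. In each row both MUC1-CD culture arrays lie apart from both Vector arrays, as the choice of these genes required. For several genes, such as Ogn, Aspn, Adh1c and Ptgs1, the tumor arrays lie between both culture groups.

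The genes with the largest rises encode secreted proteases and an inhibitor, redox enzymes and cell surface proteins, and several were close to the floor of the array in Vector cells. Mmp10 (stromelysin 2), which degrades matrix proteoglycans and activates other proteases, read 119.2 and 85.0 on the Vector arrays and 17266 and 16846 on the MUC1-CD arrays. Its neighbour Mmp3 (stromelysin 1) read 105.8 and 133.7 and 12062 and 11939.5. Serpinb2, an inhibitor of plasminogen activators, read 91.8 and 159.4 and 12305 and 13014. These 3 transcripts were also bright in tumors, where Mmp10 read 15488 and 15798, Mmp3 16353 and 15629.9 and Serpinb2 8284 and 8215. Their families went both ways. Of matrix metalloproteinases and TIMPs, 3 of 13 measured members rose and 4 fell (median 0.02). Of serpins, 2 of 10 measured members rose and 3 fell (median -0.48). Adh1c, an alcohol dehydrogenase that can also oxidise retinol, read 9.8 and 5.7 in Vector cells and 2951 and 3186 in MUC1-CD cells, and 807.3 and 877.2 in tumors.

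The starts of these 4 genes are shown because, of the 19 genes with the largest rises that have a RefSeq promoter entry, they are those with an AP-1 site (TGANTCA, searched on both strands) between 250 bases before and 50 bases after the transcription start. AP-1, the dimer of FOS and JUN proteins, acts below growth factor receptors and ERK. The sites begin at -61, -71, -189 and -193 from the start in Mmp10, Mmp3, Serpinb2 and Adh1c. The sequences are RefSeq, assembly GRCr8, plus strand, 5′ to 3′, with the AP-1 letters in capitals: Mmp10 chr8:12974457-12974756, Mmp3 chr8:12925031-12925330, Serpinb2 chr13:24055771-24056070 and Adh1c chr2:229470453-229470752.
Mmp10: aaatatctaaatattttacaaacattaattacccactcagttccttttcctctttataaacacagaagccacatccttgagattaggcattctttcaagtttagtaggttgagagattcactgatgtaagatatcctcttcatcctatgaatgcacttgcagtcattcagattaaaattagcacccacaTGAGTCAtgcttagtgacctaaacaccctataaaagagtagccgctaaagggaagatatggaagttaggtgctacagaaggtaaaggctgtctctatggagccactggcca
Mmp3: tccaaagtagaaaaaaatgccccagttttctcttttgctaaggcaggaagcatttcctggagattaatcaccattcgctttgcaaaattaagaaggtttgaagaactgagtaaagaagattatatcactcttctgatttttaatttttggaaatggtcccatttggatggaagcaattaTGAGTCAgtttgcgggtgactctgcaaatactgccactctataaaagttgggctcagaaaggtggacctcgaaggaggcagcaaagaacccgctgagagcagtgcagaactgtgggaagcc
Serpinb2: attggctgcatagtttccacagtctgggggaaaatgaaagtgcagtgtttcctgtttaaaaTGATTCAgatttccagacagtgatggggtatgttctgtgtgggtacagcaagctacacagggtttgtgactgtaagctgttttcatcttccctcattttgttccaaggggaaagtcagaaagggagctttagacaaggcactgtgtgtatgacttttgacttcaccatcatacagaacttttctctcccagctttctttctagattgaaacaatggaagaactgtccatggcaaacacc
Adh1c: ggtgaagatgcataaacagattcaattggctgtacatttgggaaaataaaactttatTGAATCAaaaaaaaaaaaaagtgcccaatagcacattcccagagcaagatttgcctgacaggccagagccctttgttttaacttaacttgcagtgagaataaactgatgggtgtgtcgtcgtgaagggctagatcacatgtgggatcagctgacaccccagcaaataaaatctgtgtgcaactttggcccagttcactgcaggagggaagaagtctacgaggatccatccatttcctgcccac

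The same letters occurred in 0 of the 16 promoters of the genes with the largest falls that have an entry, and in 7.33% of all 27457 promoters in the table and 4.87% of the 8378 of measured genes. Among genes that rose the share was 6.38%, and among genes that fell 5.09%. For genes that differed by at least 1 log2 unit from each Vector array it was 7.54% of the rises and 5.73% of the falls. The E-box CACGTG, the letters bound by MYC and its partners, was in 7.84% of promoters of genes that rose and 11.1% of those that fell, against 9.85% of measured genes. The TCF letters CTTTGAT, of the factors that recruit beta-catenin, were in 2.42% and 1.94%, against 2.32%. A match is a description of letters, and none of these shares was tested.

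The other large rises included genes of adhesion, prostaglandin synthesis and signalling. Ptgs1, the cyclooxygenase of basal prostaglandin synthesis, read 108.7 and 105.0 in Vector cells and 6965 and 7359 in MUC1-CD cells (change 5.87 ± 0.15, limma adjusted p = 0.000215), with 2929 and 2952 in tumors. Pcdh9, a protocadherin, went from 7.8 and 5.7 to 1603 and 1592 (change 6.15 ± 0.20). Both of its probe sets rose, and the tumors had 4928 and 4996. Ctsc, the lysosomal dipeptidyl peptidase that activates granule proteases, went from 7.3 and 14.1 to 1623 and 1662, and Cbln2, a secreted synaptic organiser, from 6.6 and 11.3 to 1419.9 and 1449.9. Scin, a calcium-dependent actin severing protein, went from 25.6 and 36.7 to 2569 and 2359. Cspg4 (NG2), a membrane proteoglycan of pericytes and progenitor cells, read 3.9 and 3.3 in Vector cells and 930.8 and 855.3 in MUC1-CD cells. Ryr3, a calcium release channel, reached 1235 and 1211 in MUC1-CD culture and 199.6 and 189.4 in tumors. Rgs18, Gpr176 and Aebp1 were also among the 20, with changes of 5.74, 5.57 and 5.42, and so were Sncg, Gda, Tceal1 and Ripk4, with 7.58, 6.22, 6.25 and 6.28. Against a single Vector array, the smallest change among the 20 was that of Gpr176, at 5.03 against replicate 2.

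Several of the 20 largest falls concerned genes that were bright in Vector cells. Nrbp2, a pseudokinase, went from 5516 and 5535 to 133.5 and 126.1 (change -5.25 ± 0.15, limma adjusted p = 0.000277), the small heat shock protein Cryab from 5772 and 6175 to 170.4 and 131.5, and osteoglycin, Ogn, from 5530.1 and 6377 to 169.2 and 181.3. Inhbb, the beta B subunit of activins and inhibins, went from 999.7 and 1153 to 21.2 and 16.2. Smad9, a transducer of BMP signals, went from 1010 and 1249.7 to 13.4 and 28.3. Heph, a ferroxidase that exports iron, read 1369.9 and 1319.7 in Vector cells and 19.2 and 32.8 in MUC1-CD cells, and the homeobox gene Cux2 536.6 and 565.9 and 1.8 and 2.0. Kctd15, Eid2 and Gstk1 were also among the 20, with changes of -5.35, -5.09 and -4.93, as were the protease inhibitor Slpi, from 1226 and 2114 to 8.1 and 11.9, and Colec12, Zmym6 and Tmeff1, with -5.81, -5.57 and -5.47. The smallest change against a single Vector array was that of Gstk1, at -4.53 against replicate 1.

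Agreement between probe sets of 1 gene was read from the 739 genes with at least 3 tested probe sets: all of them rose for 45 genes (6.09%) and all fell for 19 (2.57%). Besides Xist (4 probe sets), the highest of these rises were those of the atypical cadherin Cdh13, the matrix proteoglycan versican (Vcan), the tubulin ligase Ttll7 and Rgs17, whose 5 probe sets all rose. Rgs17, which turns off G protein signals, went from 232.6 and 229.9 to 2737 and 2952. Vcan went from 1.7 and 21.3 to 353.7 and 342.5 in culture and stood at 3356 and 3487 in tumors. Among the falls were Ogn with 4 probe sets, the tau gene Mapt, from 330.7 and 274.8 to 1.9 and 3.0, the Z-disc protein gene Ldb3, from 782.2 and 952.8 to 34.8 and 42.3, and the RAC regulator Chn2, from 568.5 and 766.9 to 62.5 and 75.1. Hnrnpa1, an abundant splicing factor, went from 9448 and 12497 to 3562 and 3326, and all 3 of its probe sets fell.

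Genes of the extracellular matrix differed by class. Of small leucine-rich proteoglycans, which bind collagen fibrils and growth factors, 0 of 5 measured members rose and 3 fell, with a median change of -2.10 against -0.05 for all genes. Aspn (asporin) went from 3570 and 6069 to 86.5 and 99.9, Ogn from 5530.1 and 6377 to 169.2 and 181.3 and Omd from 109.6 and 211.3 to 21.1 and 26.1, and no array of one group reached into the other. Bgn and Fmod did not pass the test. The promoters of Ogn and Aspn lie close together on chromosome 17 (chr17:15258946-15259245 and chr17:15310420-15310719). The 3 falls are therefore not 3 separate places in the genome. In tumors Aspn stood at 1739.6 and 1765 and Ogn at 1370.5 and 1399.8, above MUC1-CD culture and below Vector. Of matricellular and adhesive glycoproteins, which tie cells to the matrix, 2 of 14 measured members rose and 8 fell (median -1.03). The largest fall of all was that of Tgfbi, from 13776 and 13706 to 173.0 and 145.9. Ccn2 (connective tissue growth factor) went from 4126 and 4816 to 800.3 and 746.0, tenascin C (Tnc) from 1104 and 1345 to 211.9 and 219.6 and thrombospondin 3 (Thbs3) from 2259 and 1353 to 155.5 and 147.3. With each array left out in turn, the counts were 0 to 1 rises and 3 to 5 falls for the proteoglycans and 0 to 3 rises and 6 to 8 falls for the glycoproteins. In such ranges the low end always came from leaving out a MUC1-CD array and the high end from leaving out a Vector array.

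Of collagens, 4 of 18 measured members rose and 8 fell (median -0.24, with 3 to 6 rises and 6 to 9 falls when each array was left out). Col3a1, of reticular fibres, went from 14573 and 15624 to 5549 and 5287, and Col1a1, of the main fibrillar collagen, from 14621 and 11678 to 5059.5 and 4873. The fibril regulator Col11a1 read 1413 and 1454 in Vector cells and 13.6 and 23.7 in MUC1-CD cells. The 2 chains of collagen VIII moved in opposite directions: Col8a1 rose from 118.5 and 151.9 to 3427 and 3302 (change 4.49 ± 0.18, limma adjusted p = 0.000484), and Col8a2 fell from 3816 and 3856 to 59.0 and 70.6 (change -5.58 ± 0.17, adjusted p = 0.000322). Col3a1 stood at 14933 and 16018 in tumors, near its level in Vector cells. Of laminins and nidogens, the proteins of basement membranes, 5 of 9 measured members rose and 3 fell (3 to 5 rises and 2 to 3 falls with each array left out). Lama4 rose from 83.3 and 27.8 to 975.5 and 1009, Lama3 from 40.5 and 29.4 to 394.6 and 343.5 and Nid1 from 698.1 and 599.6 to 2770.2 and 2643, while Lama5 fell from 2317 and 1549.7 to 381.4 and 384.6 and Lamb2 from 2279.9 and 1777 to 752.5 and 725.5. Of elastic fibre genes, 5 of 14 measured members rose and 5 fell (2 to 6 rises and 2 to 7 falls with each array left out). Fbn1 (fibrillin 1) rose from 10.5 and 8.0 to 155.0 and 153.2 and the lysyl oxidase Loxl2 from 258.1 and 195.0 to 1440.4 and 1593, Fbln5 fell from 1981 and 2000.5 to 651.5 and 632.7, and Ltbp4, which stores latent TGF-beta, fell from 2181 and 1463 to 6.4 and 13.8.

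Of integrins, the receptors for these proteins, 6 of 13 measured members rose and 0 fell (median 1.28, 0.75 against Vector replicate 1 alone and 1.23 against replicate 2). Itga6, a laminin receptor subunit, rose from 840.2 and 1162 to 2690.5 and 2829.8, its partner Itgb4 from 71.7 and 80.8 to 256.3 and 233.6, and Itga8 from 13.7 and 14.4 to 216.0 and 186.6. Itgax rose from 215.4 and 157.1 to 730.7 and 679.3. The common subunits Itgb1 and Itgav did not pass the test. Leaving out each array gave 3 to 7 rises and 0 to 2 falls, and division by the array median 6 and 1. The call of Itgb4 was lost without MUC1-CD replicate 1 (adjusted p = 0.0673) and without replicate 2 (adjusted p = 0.0575). Of cadherins, calcium-dependent adhesion molecules, 5 of 12 measured members rose and 3 fell, with 4 to 7 rises and 1 to 3 falls when each array was left out. The rises included Cdh13, from 3.0 and 1.8 to 481.6 and 502.8, and the protocadherins Pcdh19, from 209.3 and 211.8 to 1754 and 1879.8, and Pcdh18, from 182.7 and 233.6 to 1506 and 1416, while the giant cadherin Fat1 fell from 5325 and 5951 to 2520.2 and 2288. N-cadherin (Cdh2) did not pass the test. Semaphorins and plexins, guidance cues for cell migration, went both ways (6 of 21 measured members rose and 8 fell, or 4 to 10 rises and 3 to 9 falls with each array left out). Sema6d rose from 20.4 and 2.5 to 741.5 and 668.1 and Sema5a from 14.4 and 22.0 to 509.6 and 536.7, while Sema3e fell from 2709.7 and 4575 to 190.3 and 190.9 and Sema3b from 640.8 and 583.6 to 15.5 and 10.1.

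**Figure D2:**
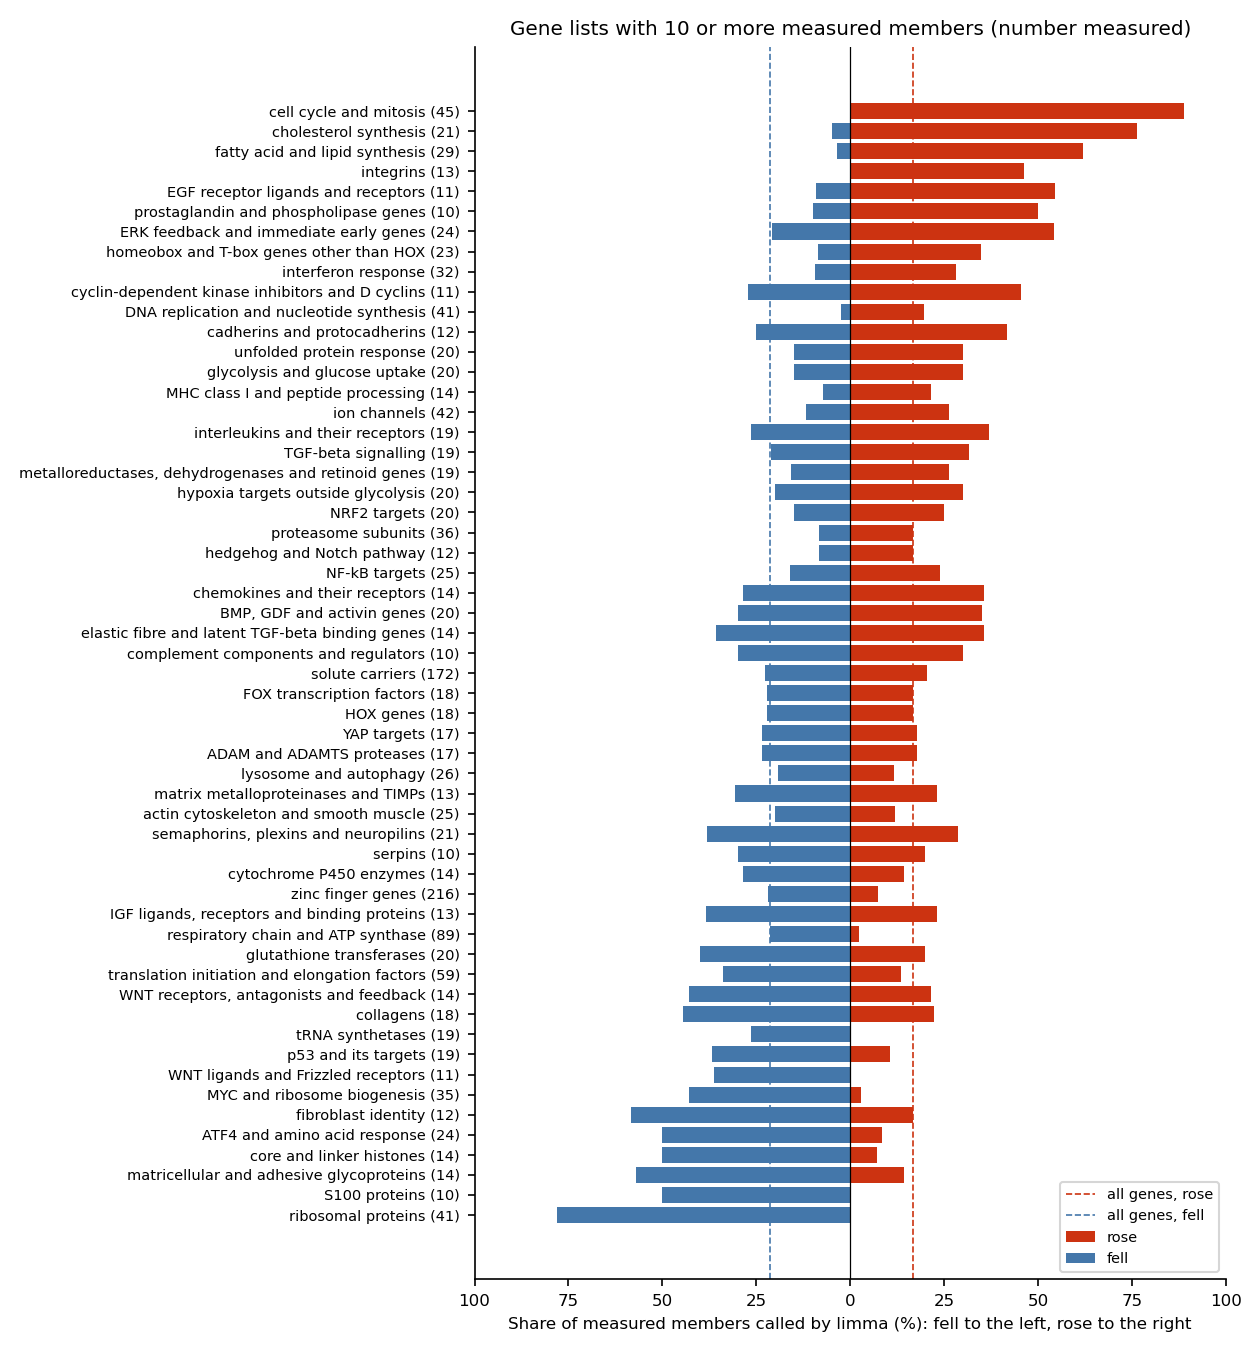
Percent of measured members that rose and that fell in gene lists with at least 10 measured members, with dashed lines at the shares over all genes (16.6% rose, 21.3% fell). Mitosis and cholesterol synthesis have the largest shares of rises, and ribosomal proteins the largest share of falls.

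Of EGF receptor ligands, receptors and regulators, 6 of 11 measured members rose and 1 fell (3 to 6 rises and 1 to 3 falls with each array left out). Besides the ligand Areg, from 113.0 and 177.3 to 5100.5 and 4661, the ERBB ligand Nrg1 rose from 91.5 and 111.4 to 410.2 and 402.1, and all 4 of its probe sets rose. Lrig1, a transmembrane protein that lowers EGF receptor levels, rose from 704.5 and 913.6 to 6508 and 6759 (change 3.02 ± 0.17, limma adjusted p = 0.000643), while its relative Lrig3 fell from 1355 and 1350.1 to 486.3 and 494.5. ERK feedback and immediate early genes, which include phosphatases that switch the kinase off, had 13 rises and 5 falls among 24 measured members (6 to 17 rises and 2 to 6 falls with each array left out). Spred3, an inhibitor of RAF activation, rose from 165.7 and 156.3 to 746.4 and 629.7, and the AP-1 gene Jund fell from 9024 and 7468 to 3069 and 3341. Both FGF receptors with a call were lower, Fgfr2 from 973.8 and 1096 to 224.4 and 231.0 and Fgfr3 from 360.6 and 452.2 to 74.0 and 91.1.

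Of activin, BMP and GDF genes, 7 of 20 measured members rose and 6 fell (2 to 8 rises and 4 to 9 falls with each array left out). Inhba, the beta A subunit of activin, rose from 17.8 and 24.4 to 286.5 and 399.5 and stood at 1927 and 1975 in tumors, whereas Inhbb, the beta B subunit, fell to 21.2 and 16.2. Bmp4 fell from 324.9 and 249.6 to 32.7 and 41.2, and Grem1 (gremlin), a secreted antagonist of BMPs, rose from 1270.2 and 1407 to 5443 and 5735. The BMP target genes Id1 and Id2, which encode inhibitors of differentiation factors, fell from 7040 and 6139 to 1574 and 1337 and from 7142 and 11616 to 929.8 and 1515. On the WNT side, 3 of 14 measured members rose and 6 fell of receptors, antagonists and feedback genes (1 to 3 rises and 3 to 7 falls with each array left out), and 0 of 11 WNT ligands and Frizzled receptors rose and 4 fell (2 to 6 falls). Sfrp4, a secreted WNT antagonist, rose from 20.2 and 29.5 to 1397 and 1399, and the antagonist Wif1 fell from 381.1 and 341.6 to 30.3 and 47.2. Lef1, a factor that recruits beta-catenin, fell from 918.7 and 1254 to 235.7 and 241.3, and the receptor Fzd4 from 2130.3 and 2112 to 504.1 and 538.3. The IGF binding protein genes Igfbp4 and Igfbp6 fell from 816.1 and 899.7 to 177.9 and 84.7 and from 1536 and 927.4 to 275.0 and 258.5.

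Of prostaglandin and phospholipase genes, 5 of 10 measured members rose and 1 fell (median 0.64, 0.90 and 0.47 against single Vector arrays, 3 to 5 rises and 0 to 2 falls with each array left out). Pla2g4a, the phospholipase that frees arachidonic acid, rose from 321.2 and 476.5 to 1514 and 1339, and Pla2g2a, a secreted phospholipase, from 2.3 and 5.3 to 113.4 and 121.1. Cyclooxygenase 2 (Ptgs2) rose from 892.7 and 1219 to 9740.5 and 10306 (change 3.24 ± 0.18, limma adjusted p = 0.000639). The prostaglandin E synthase genes Ptges, Ptges2 and Ptges3 did not pass the test. Of interleukins and their receptors 7 of 19 measured members rose and 5 fell, and of chemokines and their receptors 5 of 14 measured members rose and 4 fell (5 to 10 rises and 2 to 6 falls, and 4 to 8 rises and 1 to 5 falls, with each array left out). Il1rl1, the receptor of interleukin 33, rose from 49.4 and 59.3 to 1209.7 and 1144, the interleukin 1 receptor Il1r1 from 813.9 and 848.6 to 2381 and 2138, Il15 from 27.8 and 22.1 to 213.5 and 206.7, and the alpha receptor subunit Il3ra fell from 1594 and 969.1 to 37.7 and 27.7. Of chemokines, Ccl2, which attracts monocytes, rose from 2295 and 3069 to 9381 and 9022 and the membrane-bound Cx3cl1 from 35.1 and 43.5 to 486.4 and 446.9, while Cxcl10 fell from 5188 and 5558 to 2533 and 2447. Of interferon response genes, 9 of 32 measured members rose and 3 fell (4 to 17 rises and 0 to 5 falls with each array left out), led by Ifit3, from 31.2 and 26.6 to 181.5 and 219.3, Ifit2, from 85.4 and 96.8 to 379.6 and 391.2, and the interferon antagonist Usp18, from 441.3 and 470.0 to 1675 and 1664.

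Most mitosis genes rose, and few genes of DNA replication were called. In the mitosis list 40 of 45 measured members rose and 0 fell, and 25 of them differed by at least 1 log2 unit from each Vector array. The median change was 1.15 on all arrays and 1.27 and 1.14 against single Vector arrays, and each array left out gave 17 to 43 rises and 0 falls. Pttg1 (securin), an inhibitor that keeps sister chromatids from being parted before anaphase, rose from 1129.6 and 1048 to 3520 and 3439. In the replication list 8 of 41 rose and 1 fell (median 0.26, 0 to 22 rises and 1 to 5 falls with each array left out), and division by the array median turned the balance to 2 rises and 5 falls. Mcm7, a subunit of the replicative helicase, fell from 4178 and 4309 to 1999 and 2016. The difference between both lists was not tested. The kinase Cdk4 fell from 9142 and 5941 to 2618 and 2396 and the inhibitor Cdkn1a (p21) from 7281 and 6939 to 2543 and 2032, while the phosphatase Cdkn3 rose from 695.3 and 984.9 to 3768 and 3974 and the inhibitor Cdkn2d from 136.5 and 127.1 to 541.4 and 564.9. In the list of cyclin-dependent kinase inhibitors and D cyclins, 5 of 11 measured members rose and 3 fell. Of the 3 falls, 2 lay outside chromosome 7, whose low genes are described below. Among p53 targets 6 of 7 falls did. Of p53 targets, 2 of 19 measured members rose and 7 fell (1 to 5 rises and 3 to 9 falls with each array left out): besides Cdkn1a, the p53 ligase Mdm2 fell from 5806 and 6659 to 2360 and 2242 and Plk2 from 1290.3 and 969.9 to 291.6 and 302.4, and the death receptor Fas rose from 33.4 and 39.3 to 303.6 and 335.7. Of 14 histone genes, 7 fell (3 to 8 with each array left out), among them the linker histone H1f2, from 14006 and 12233 to 4916 and 4676, and the variant H2az1 rose from 8591 and 8991 to 18035 and 18612.

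**Figure D3:**
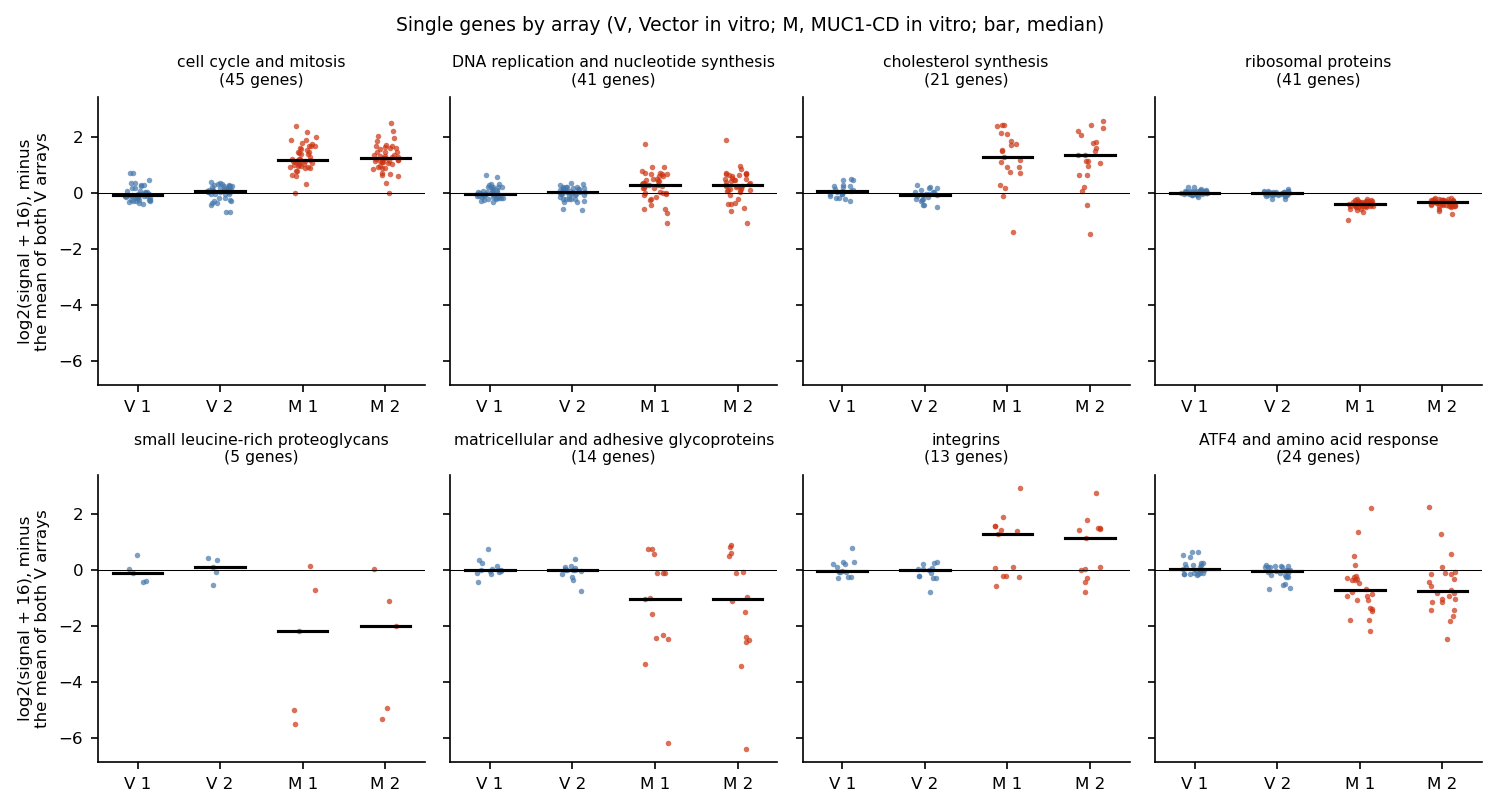
Log2 level of each measured member relative to its Vector mean on each of the 4 culture arrays, for 8 gene lists, with the median per array. The medians of both MUC1-CD arrays were 1.18 and 1.25 for mitosis, 1.30 and 1.34 for cholesterol synthesis and -0.72 and -0.75 for the ATF4 list.

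In the cholesterol synthesis list 16 of 21 rose and 1 fell (median 1.32, 1.47 and 1.21 against single Vector arrays, 11 to 18 rises and 0 to 2 falls with each array left out). The last enzyme of the pathway, Dhcr7, rose from 728.2 and 645.8 to 2274 and 2102, and tumors had 335.3 and 379.3. The member that fell was Srebf2, the transcription factor that controls the pathway, from 2900.5 and 1465 to 772.2 and 730.8 (change -1.44 ± 0.33, limma adjusted p = 0.0227). It lies on chromosome 7, in a region of lower genes described below, was singled out after its values were seen, and was not called without MUC1-CD replicate 1 (adjusted p = 0.054) or replicate 2 (adjusted p = 0.0783). In the fatty acid list 18 of 29 rose and 1 fell (7 to 22 rises and 0 to 3 falls with each array left out), and Fabp3, a fatty acid carrier, went from 10.2 and 14.1 to 200.3 and 177.6.

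In the lists of the amino acid response and of translation, falls outnumbered rises. ATF4 is the factor that turns on amino acid synthesis and uptake when amino acids are short. In its list 2 of 24 measured members rose and 12 fell (median -0.77, -0.78 and -0.57 against single Vector arrays, 1 to 5 rises and 7 to 18 falls with each array left out). Atf4 itself fell from 13113 and 14973 to 4082 and 3938 and its partner Ddit3 (CHOP) from 2089.5 and 2417 to 635.6 and 704.8, both on chromosome 7, and outside that chromosome 2 members rose and 9 fell. The serine synthesis enzyme Psat1 fell from 10606 and 10758 to 4142 and 4013 and the arginine carrier Slc7a1 from 2216 and 2675 to 926.4 and 902.7, whereas Cth, which makes cysteine, rose from 603.1 and 464.8 to 2546 and 2625. Asns and Slc7a11 did not pass the test. Of tRNA synthetases 0 of 19 rose and 5 fell (0 to 3 rises and 1 to 12 falls with each array left out), including Mars1, from 3915 and 3577 to 1666 and 1572. All 41 measured ribosomal protein genes lay between -0.73 and -0.19, and 32 fell (2 to 40 with each array left out), but the number was 40 after division by the array median and 4 after quantile normalization. These transcripts are near the top of the scale: Rpl4 went from 21325 and 19995 to 12732 and 13344 and Rpl19 from 24607 and 23165 to 16012 and 16169.9. Among translation factors 8 of 59 rose and 20 fell (2 to 17 rises and 6 to 33 falls with each array left out), and 5 of the 6 on chromosome 7 fell, such as Eif3h, from 17997 and 19319 to 7729.7 and 7946.

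Of glutathione transferases and peroxidases, 4 of 20 measured members rose and 8 fell (2 to 6 rises and 5 to 11 falls with each array left out). Gsta1 went from 721.7 and 862.1 to 19.5 and 8.2, Gsta4 from 1599 and 1906 to 221.2 and 229.7 and Gstk1 from 487.3 and 849.0 to 2.0 and 10.2, whereas Mgst3 rose from 382.8 and 208.8 to 1664 and 1672. Probes of close paralogs in this family can share transcripts. The epoxide hydrolase Ephx1 fell from 2394 and 1842 to 162.6 and 160.5, the metallothionein Mt2A from 7708 and 7920.1 to 835.4 and 900.2, and the protease inhibitor cystatin C (Cst3) from 15629 and 12507 to 1724 and 1833. In a list of genes for metal reduction, alcohol and aldehyde dehydrogenases and retinoid handling, 5 of 19 rose and 3 fell (4 to 9 rises and 0 to 4 falls with each array left out, median 0.13). Steap4, a reductase of iron and copper, rose from 21.1 and 11.9 to 2576 and 2907, and its relative Steap1 from 692.5 and 656.3 to 2010.4 and 2188. The retinal dehydrogenase Aldh1a3 rose from 24.4 and 9.5 to 250.9 and 255.2. For glucose, the carrier Slc2a3 rose from 442.3 and 407.8 to 3076 and 2578 and the lactate carrier Slc16a1 fell from 4567 and 4310.1 to 1999.6 and 1964. Glycolysis as a list had 6 rises and 3 falls of 20 (2 to 11 rises and 2 to 6 falls with each array left out), and 5 rises and 7 falls after division by the array median. Of hypoxia targets, Ero1a rose from 432.6 and 470.7 to 1403 and 1202 and Ndrg1, on chromosome 7, fell from 10878 and 11892 to 3389 and 3316.

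Among large families, solute carriers had shares of calls near those of all genes, and zinc finger genes had a smaller share of rises, a difference that was not tested. Of 172 solute carriers, 35 rose (20.3%) and 39 fell (22.7%), with 10 to 59 rises and 13 to 60 falls when each array was left out. The vesicular glutamate carrier Slc17a6 rose from 93.1 and 162.8 to 2307 and 2135 and the phosphate carrier Slc20a1 from 3160.1 and 3596 to 12803 and 11764, while the sodium and calcium exchanger Slc24a3 fell from 1257 and 1301 to 68.8 and 92.9. Of 42 ion channel genes 11 rose and 5 fell (4 to 17 rises and 2 to 9 falls with each array left out): the sodium channel Scn3a rose from 2.0 and 4.6 to 249.2 and 293.1 and the potassium channel Kcnq5 from 261.9 and 250.9 to 1373 and 1177, and the sodium channel subunit Scn4b fell from 560.0 and 667.8 to 19.8 and 35.6. Of 216 zinc finger genes 16 rose (7.41%) and 47 fell (21.8%), with 2 to 37 rises and 9 to 101 falls when each array was left out. Zfp182 rose from 90.6 and 79.3 to 681.2 and 692.2 and both probe sets of Zbtb1 fell, the brighter from 1928 and 1934 to 564.2 and 538.1.

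Calls among transcription factor families went both ways. For FOX and for HOX genes the shares (16.7% rose and 22.2% fell) were near those of all genes (16.6% and 21.3%). Other homeobox and T-box genes had 34.8% and 8.70%, a difference that was not tested. Of FOX factors 3 of 18 measured members rose and 4 fell, of HOX genes 3 of 18 measured members rose and 4 fell, and of other homeobox and T-box genes 8 of 23 measured members rose and 2 fell. Leaving out each array gave 2 to 5 rises and 1 to 8 falls, 0 to 5 rises and 1 to 8 falls, and 1 to 11 rises and 1 to 5 falls, in the same order. Tbx5, of the forelimb and heart, rose from 7.3 and 29.2 to 471.8 and 486.7 and Foxp2 from 23.5 and 42.0 to 353.6 and 357.8. Scleraxis (Scx), the tendon factor, fell from 7038 and 6086 to 679.1 and 642.2, Sox4 from 7787 and 7222 to 1479 and 1336, Klf2 from 1793 and 1913 to 180.1 and 171.4 and Foxf1 from 137.5 and 214.6 to 6.7 and 26.0. Among genes of the muscle sarcomere, the myosin gene Myh1, whose 5 probe sets all fell, went from 9779 and 10297 to 2806 and 2626, and cardiac troponin C (Tnnc1) from 8681 and 7337 to 1973 and 1984. The related Myh2 and Myh4 read 33.8 or less on the 4 culture arrays and were not tested. In tumors the same Myh1 probe set read 4122 and 3929. The sources used here do not say which transcripts the Myh1 probes match. Of 16 skeletal muscle markers 5 were tested, with 1 rise and 1 fall (0 to 2 rises and 1 to 2 falls with each array left out). The rise was that of the fast troponin I gene Tnni2, from 80.7 and 65.8 to 146.4 and 159.4 (adjusted p = 0.0309, and 0.205 and 0.274 without MUC1-CD replicate 1 and 2), and the fall that of Myh1. Skeletal actin (Acta1) read 23.6 or less on the 4 culture arrays and was not tested, and it read 5855 and 4971 in tumors. Of 17 macrophage markers 10 were below the filter on all 4 arrays, Ptprc and Itgam among them. The summed signal of the macrophage list went from 1261 and 1375 to 3549 and 3768, mostly through the endotoxin co-receptor Cd14, from 593.6 and 463.8 to 2828 and 3052. Cd163 went from 1.7 and 9.3 to 115.1 and 144.7 and lysozyme (Lyz2), on chromosome 7, fell from 267.6 and 376.7 to 58.1 and 59.0. Of 15 epithelial markers 3 were tested, and Epcam and Cdh1 were below the filter on all 4 arrays. The keratin gene Krt8, on chromosome 7, fell from 449.8 and 424.3 to 36.2 and 43.6, and Krt7 rose from 86.6 and 81.4 to 255.8 and 186.7 and the plakophilin gene Pkp1 from 985.0 and 1214 to 1648 and 1602. Both rises lost their call without MUC1-CD replicate 1 (adjusted p = 0.171 for Krt7 and 0.345 for Pkp1) and without replicate 2 (0.0702 and 0.323). Of 11 endothelial markers, 2 were measured and 0 were called by limma.

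Many of the falls lay in long stretches of neighbouring genes. Measured genes were put in GRCr8 order and split into 249 runs of 40, with fewer or more at chromosome ends. In 25 runs at least 80% of the genes were lower in MUC1-CD cells, and in 2 at least 80% were higher, where 53% of all placed genes were lower. The 25 runs held 994 genes, of which 568 fell (57.1%) and 53 rose, against 17.4% that fell and 17.5% that rose in the other runs outside these and the higher ones. They held 26.8% of all falls. Their median changes were -1.21 to -0.39, and -1.23 to -0.42 against Vector replicate 1 alone and -1.27 to -0.32 against replicate 2 alone. The runs were chosen by these same changes, so their high share of falls and their negative median changes follow from the choice. Medians against a single Vector array use the same arrays and are no separate check. Vector replicate 1 minus replicate 2 had medians of -0.21 to 0.39 over the same runs. Tumor minus MUC1-CD culture, which shares the MUC1-CD culture arrays, had medians of -0.28 to 0.28. With division by the array median the medians were -1.54 to -0.71. With runs of 20 genes, 53 of 497 were at least 80% lower and 12 at least 80% higher.

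**Figure D4:**
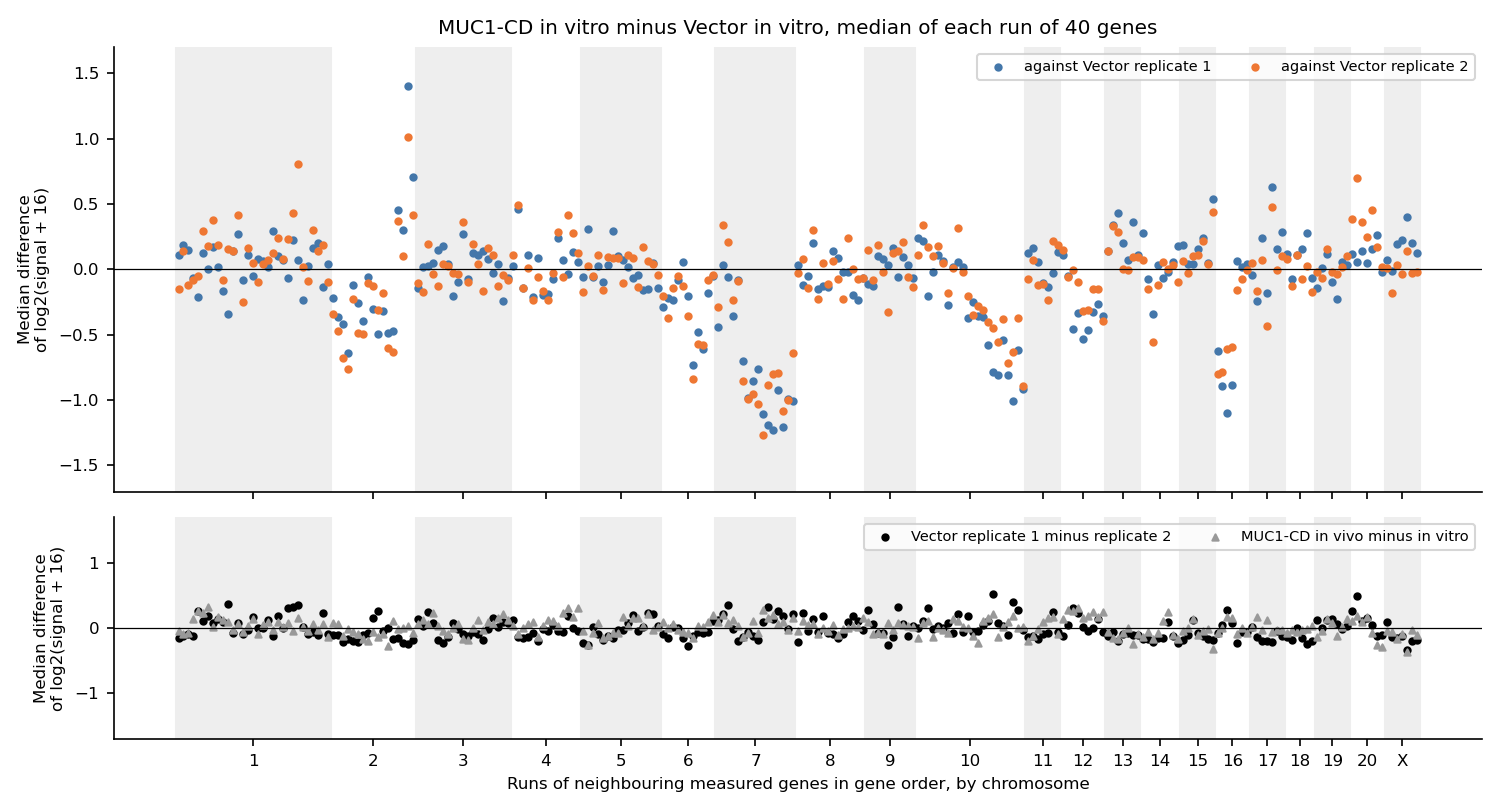
Median change of each run of neighbouring genes in genome order, against Vector replicate 1 and against replicate 2, with the difference between the Vector arrays and that between tumor and culture in the lower panel. Chromosome 7 has a block of low runs in both upper series, and the lower panel stays between -0.34 and 0.52 for the difference between the Vector arrays.

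Chromosome 7 held 11 of the 25 runs, one after another from Cradd to Glycam1, out of 16 on the chromosome. Of its 653 measured genes 324 fell (49.6%) and 52 rose (7.96%), and the median was -0.69, with -0.72 and -0.64 against single Vector arrays. The stretch takes in growth regulators, stress factors and structural genes. Kitlg (stem cell factor) fell from 3777 and 4423 to 606.9 and 593.0, the transcriptional cofactor Zfpm2 from 2934 and 2689 to 449.1 and 454.0, Myc from 3824 and 3012 to 227.9 and 226.8, the cytolinker Eppk1 from 534.8 and 495.5 to 20.1 and 8.7, Scx and Atf4 as given above, and the vasopressin receptor Avpr1a from 2386 and 1885 to 311.1 and 316.9. The amino acid carrier Slc38a1 fell from 3975 and 5479 to 663.8 and 697.1 and the homeobox gene Pou6f1 from 395.0 and 384.5 to 8.9 and 19.8. The run from Twf1 to Nckap5l had 92.5% of its 40 genes lower. Some genes of the chromosome went the other way, such as Dusp6, which rose from 1636 and 1434 to 9841 and 9174. Among tRNA synthetases 4 of the 5 falls lay outside chromosome 7. Of 10 respiratory chain genes on it 6 fell, among 2 rises and 19 falls in 89 genes of that list (0 to 19 rises and 4 to 44 falls with each array left out). Of 35 genes for MYC and for making ribosomes 1 rose and 15 fell (0 to 3 rises and 5 to 22 falls), and 13 of the 15 falls lay elsewhere.

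The other low stretches were on chromosomes 2, 6, 10, 12 and 16. On chromosome 16 the first 3 runs, from Polr3a to Cope, were all low, with medians of -0.73, -0.87 and -0.80, and 39.0% of the 290 measured genes of the chromosome fell. Gnl3, Klf2 and Ifi30 lie in them, and Ifi30, a thiol reductase of the lysosome, went from 1042 and 1123 to 61.7 and 64.6. On chromosome 10, 5 runs qualified between Snf8 and the last gene, Metrnl, with from 1108 and 1446 to 114.1 and 135.5 for Ramp2, a partner of calcitonin-type receptors, and from 466.4 and 443.9 to 8.4 and 8.2 for Tbkbp1. On chromosome 6 the runs from Arid4a to Ylpm1 had medians of -0.87 and -0.54, and Aldh6a1 went from 1998 and 2115 to 421.3 and 478.8. On chromosome 12 the run from Rhbdd2 to Slc15a4 had a median of -0.39, the closest to 0 of the 25. The remaining chromosomes had medians between -0.05 and 0.17.

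Chromosome 2 held both kinds of run. The run from Tet2 to Uox was the one with the highest median of all 249, at 1.19, with 92.5% of 40 genes higher, 32 that rose and 1 that fell. Its median was 1.40 against Vector replicate 1 and 1.01 against replicate 2, and 0.89 with division by the array median. Adh1c lies in it, and so do the lysosomal mannosidase Manba, from 34.6 and 29.6 to 829.0 and 820.2, the centrosome protein Ssx2ip, from 134.0 and 258.1 to 1578 and 1623, and the kinetochore motor Cenpe, from 358.8 and 231.2 to 1581 and 1696. The next run, the last of the chromosome, from Prkacb to Wls, had a median of 0.49 over 24 genes, of which 12 rose and 1 fell, including Cth, from 603.1 and 464.8 to 2546 and 2625, and the adhesion receptor Adgrl2, from 669.5 and 570.9 to 2232 and 2386. On the same chromosome, the runs from Kif2a to Dab2, Rictor to Chmp4c and Tars2 to Ptgfrn were low, with medians of -0.58, -0.72 and -0.57. Carbonic anhydrase 3 (Car3) fell from 12606 and 17342 to 350.7 and 340.3, the glutamate carrier Slc1a3 from 669.1 and 1016 to 81.8 and 59.8 and Txnip, a brake on glucose uptake, from 6141 and 3839 to 1005 and 943.6.

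**Figure D5:**
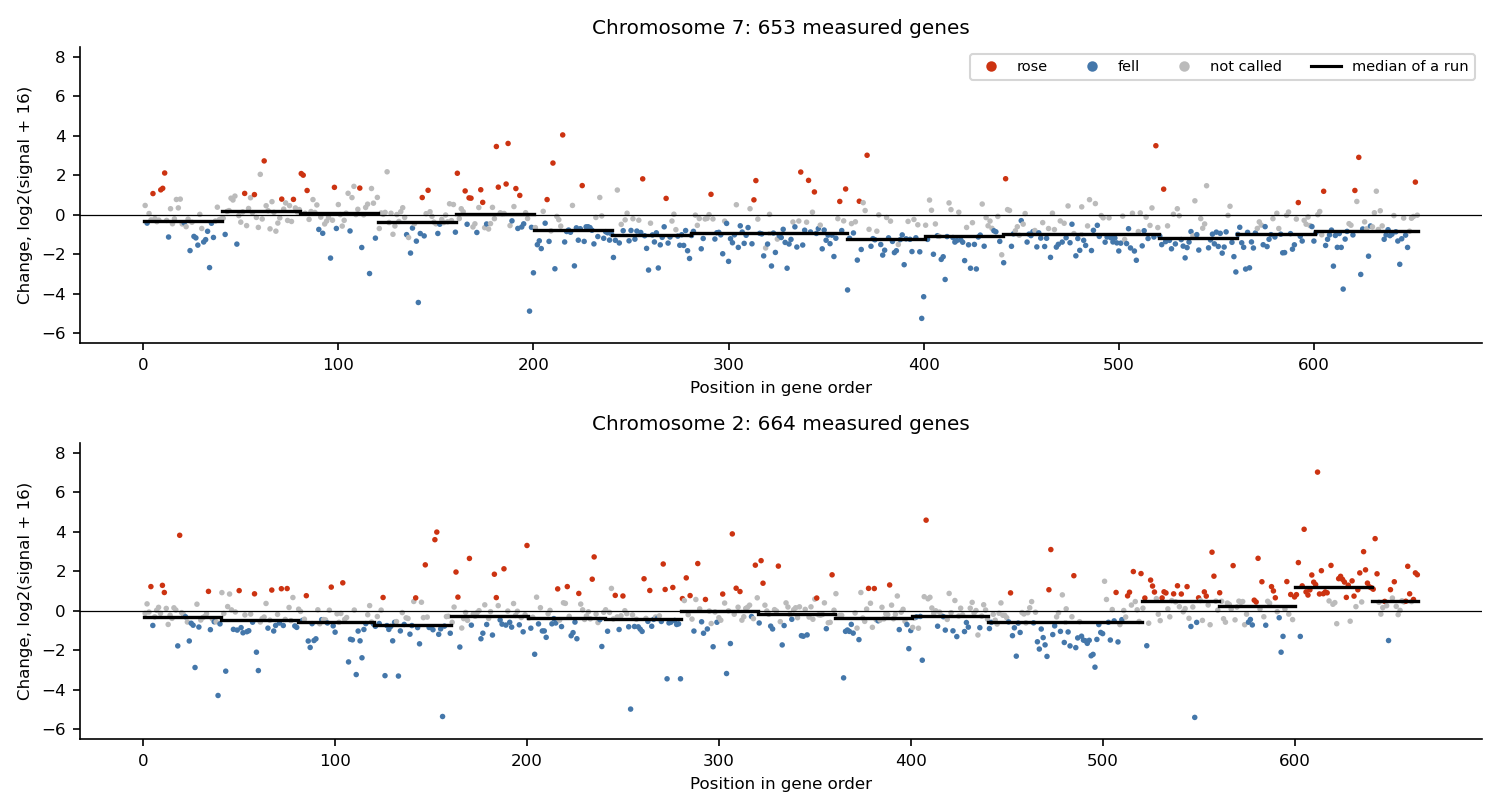
Change of each measured gene along chromosomes 7 and 2 in gene order, with the median of each run. On chromosome 7 the run medians lie between -1.21 and -0.78 from Cradd to Glycam1, and on chromosome 2 they are below 0 up to the run that ends at Ahcyl1 and above 0 in the 4 runs after it, at 0.47, 0.26, 1.19 and 0.49.

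Genes of the sex chromosomes were read as well. Xist, the RNA that coats the inactive X chromosome, was at the floor in Vector cells (1.7 and 1.2) and among the bright transcripts in MUC1-CD cells (6596 and 7668) and tumors (10331 and 10472). The brighter probe set of the Y-linked Uty read 1309.5 and 1301 in Vector cells and 2558 and 2494 in MUC1-CD cells. Another Uty probe set read 12 and 48.6 in Vector cells and 29.4 and 22.8 in MUC1-CD cells and was not tested. Eif2s3y and Sry were near the floor on all 4 arrays. Whether the brighter Uty probe set reads a Y-linked transcript was not tested. The call of Uty did not hold without MUC1-CD replicate 1 (adjusted p = 0.0922) or replicate 2 (adjusted p = 0.0928). The 296 measured genes of the X chromosome had a median change of 0.09 (-0.21 with division by the array median), and 23.3% rose and 15.5% fell.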

How the data were processed

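Each array measured total RNA of 1 sample on the Affymetrix Rat Genome 230 2.0 array. The deposited values are MAS5 signals, a linear microarray intensity per probe set, per the submitters' processing notes. All arrays had nearly the same 2% trimmed mean of the deposited signals (500.2), which was kept as their scaling. The MAS5 version and detection calls: not given in the sources used here. Of 31099 probe sets 57 are controls, and 20826 of the others name 1 gene, 436 several and 9780 none. Symbols were updated to GRCr8 (20758 matched).

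Signals were taken as log2(signal + 16) on the 4 culture arrays. limma 3.58.1 in R 4.3.3 (lmFit, eBayes with trend, group as the only term) gave 2 residual degrees of freedom, and the prior added a median of 3.42. All p values are 2-sided, with Benjamini-Hochberg adjustment over 18629 probe sets and a threshold of 0.05. Tables and figures were made in Python 3.11.15, and the fit was tested on simulated data. A gene is its tested probe set with the highest mean signal. Promoters are RefSeq, 250 bases before to 50 after each start. Alternatives were other pseudocounts, filters and scalings, each array left out, a replicate block, no trend, array weights and all 6 arrays.

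The rule for named genes took the 20 largest rises and 20 largest falls without overlap that also differ by at least 1 log2 unit from each Vector array, the 10 each way with at least 3 agreeing probe sets, the 10 brightest each way with a change of at least 2, up to 5 called members of each list by smallest p, up to 4 genes of each run, the Y-linked and X inactivation genes and Muc1. Comparison, lists and rules were chosen with earlier results of these data known. With 2 arrays a group, precision is limited by their number.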

Additional observations from a re-analysis of the deposited data

How the results depend on the processing

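Of 442 named genes that were called, 440 kept their direction under each of the 14 alternatives, and 329 also stayed past the threshold in each one that tested them. The other 2, S100a4 and S100a6, fell by 0.31 and 0.29 on the deposited scale and had changes of 0.047 and 0.057 under quantile normalization. Their limma calls were also lost without MUC1-CD replicate 1 (adjusted p = 0.277 and 0.326) and replicate 2 (0.173 and 0.202). Named genes were chosen by large change, small p or lack of overlap, so the directions they kept follow in part from that choice. Division by the array median gave 5369 lower and 2461 higher probe sets, and 3474 lower and 1061 higher genes. The share of higher calls thus went from 52.8% to 31.4% of probe sets and from 43.8% to 23.4% of genes. When each array was left out in turn, 2171 to 12114 probe sets were called (1114 to 6604 higher, 1057 to 5510 lower), and 1214 to 6605 genes (519 to 3128 higher, 695 to 3492 lower). A group left with 1 array takes its spread from the other group. With the replicate number as a block, 7235 probe sets and 3828 genes were called, and the correlation of same-numbered deviations was -0.03. All 6 arrays in the fit gave 8522 probe sets and 4612 genes.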
